A study of Rattus norvegicus with 39 samples.

Results

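The comparison described here set the cerebral cortex of 28-month-old calorie-restricted (CR) rats against that of 12-month-old CR rats. It used 6 of the 39 libraries of the series, chosen by their labels alone: pools 13, 14 and 15 of the 12-month CR group and pools 16, 17 and 18 of the 28-month CR group. The animals were male BN rats (BN/SsNOlaHSD, an inbred strain), housed singly under a 12-h light cycle. Both groups had been fed ad libitum (AL) until 2 months of age and then received 55% of the daily intake of AL controls, so both carried the restriction and only age differed between them by design. Each library came from a pool of 2 rats, so that the 12 animals gave 3 values at each age, and the spread between pools understates that between animals. The question was which transcripts change between mid-life and old age in cortex of rats restricted since youth. For comparison, the 12- and 28-month libraries of rats fed AL without supplement, and of rats fed AL with α-lipoic acid (AL+LA, 1.5 g/kg of diet), are given where a CR result turns on them. All rats were fed the unsupplemented diet AL until 2 months of age, and each of these 3 feeding regimens was then held until sampling.

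Several of the genes below belong to known systems of the ageing brain. Microglia are the resident macrophages of the brain, and on activation they display peptides on major histocompatibility complex (MHC) class II molecules, which are loaded in endosomes with the help of the invariant chain, encoded by Cd74. Glial fibrillary acidic protein, encoded by Gfap, is the intermediate filament of astrocytes and accumulates in reactive astrocytes. Calorie restriction is widely used in rodents as an intervention that slows many age-related changes.

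The libraries held 3230145 to 4078398 reads on genes at 12 months and 4218382 to 5614861 at 28 months, and levels are given as CPM (read counts relative to library size) with TMM factors. Some sets of libraries stood apart from the rest. Rn28s, annotated as 28S ribosomal RNA, and 25 further identifiers whose level followed it (Pearson's r of at least 0.8 over the 33 other libraries, a description in which libraries share preparation and depth) took 5.86 to 8.61% of the reads on genes in the 12-month CR pools and 19.6 to 23.2% in the 28-month CR pools. Separately, pools 13 and 14, but not pool 15, held 45 genes at least 3 times higher than in each of the other 4 CR pools. The share of all reads that did not align was 41.8% ± 1.17 (SD, n = 3) at 12 months and 39.6% ± 1.33 (SD, n = 3) at 28 months, a difference of −2.22 percentage points with a two-sided exact permutation p of 0.1, the smallest that 3 pools against 3 can give. The part of any of these in the results below was not tested. Log2 differences without pools 13 and 14 are given for the called genes and for the lists described. They set the 28-month pools against pool 15 alone, so no p-value or count of calls is given with them.

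The tissue label was checked against marker genes. Neuronal Syt1, a synaptic vesicle calcium sensor, Gad1, which makes GABA, and Neurod6, a cortical neuron transcription factor (57.1 ± 13.4 and 67.4 ± 12.3 CPM at 12 and 28 months, SD, n = 3), were present in every pool. None of the tested members of the cell type and region lists was at 0 in any of the 6 pools. Testing itself required at least 1 CPM in at least 3 libraries, and the lists cover other brain regions, so this does not check the tissue. Gabra6, a GABA receptor subunit of cerebellar granule cells, was at 1.53 ± 0.936 and 0.645 ± 0.369 CPM (SD, n = 3), while the 13 tested cerebellar markers, several of which other brain regions also express, summed to 850 to 970 CPM at 12 months and 833 to 1006 CPM at 28 months. The 8 tested hippocampal, thalamic and olfactory markers summed to between 72.3 and 241 CPM in the 12-month pools and between 80.9 and 244 CPM in the 28-month pools, so single pools differed in these markers within each age.

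Of 17230 genes tested, 47 (0.273%) passed an adjusted p of 0.05 (edgeR's quasi-likelihood test, Benjamini-Hochberg), 41 higher (0.238%) and 6 lower (0.0348%) at 28 months. At an unadjusted p under 0.05 there were 1156 genes (6.71%). The 3 pools of one age lay wholly apart from those of the other for 2027 genes (11.8%, with 6.4% higher and 5.36% lower at 28 months) and for 45 of the 47. Rn28s and the 25 identifiers following it made up 26 of the 41 that rose. These 26 fell into 11 sets, several of them of identifiers with near-equal counts (within about 3%), so they are not 26 separate transcripts, and how their shared reads were counted is not given in the sources used here. Of the other 21, 15 rose and 6 fell, and 14 carried a gene symbol. The named genes that rose were Cd74 and 4 chains of the class II molecule (the alpha and beta chains RT1-Ba and RT1-Bb, and RT1-Da with RT1-Db1), the lysosomal protease gene Ctss, and Gfap, Fth1, ATP8, Myo6, Ccdc47 and Cirbp. Hspa1b and Alb fell.

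**Figure D1:**
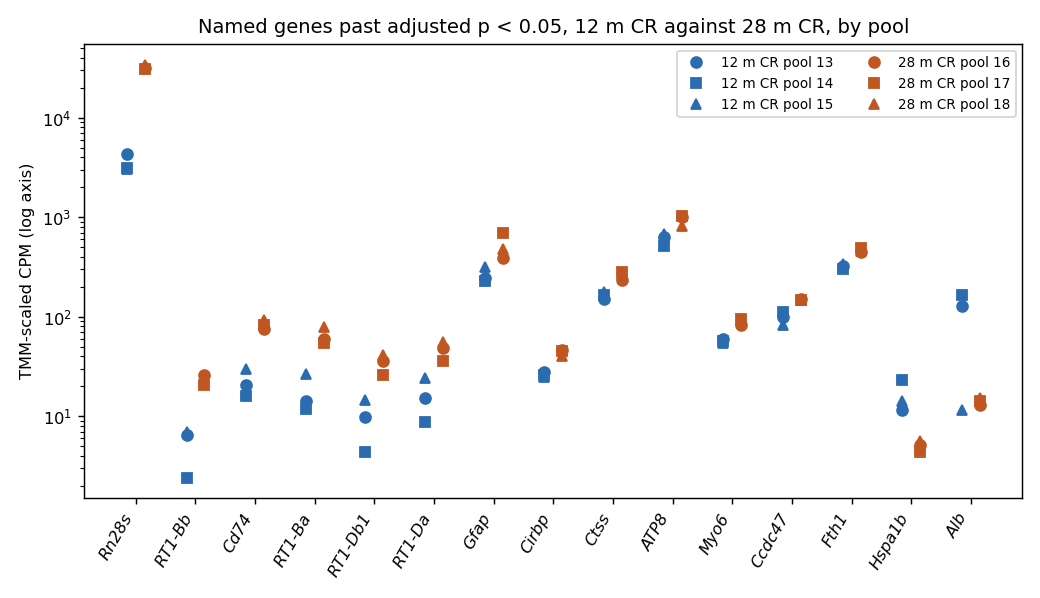
TMM-scaled CPM on a log axis of each named gene past the adjusted threshold, with 1 point per pool in the 12-month and 28-month CR groups. The 3 pools of each age lie apart for every gene plotted except Alb, whose pool 15 (11.6 CPM) is below the 28-month pools while pools 13 and 14 are far above them.

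MHC class II genes were the group with the most called members. Cd74, which chaperones class II chains to the endosome, was at 20.6, 16 and 29.6 CPM in pools 13, 14 and 15 and at 75.8, 82.1 and 93 CPM in pools 16, 17 and 18. Every 28-month pool was more than double the highest 12-month pool, with means of 22.1 ± 6.9 and 83.6 ± 8.69 CPM (SD, n = 3). The log2 difference was 1.93 with a standard error (SE) of 0.183 (adjusted p = 4.72e-06 by edgeR).

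The chains of the class II molecules themselves, which the rat RT1 locus encodes as B (the DQ-type) and D (the DR-type) pairs, rose with it. RT1-Ba, the B alpha chain, was at 14.2, 11.9 and 26.5 CPM in the 12-month pools and 59.8, 54.8 and 78.7 CPM in the 28-month pools (log2 difference 1.88, SE 0.227, edgeR adjusted p = 0.000124). RT1-Bb, the B beta chain, was at 6.42, 2.42 and 6.87 CPM and then 25.7, 20.4 and 23.8 CPM (log2 difference 2.17, SE 0.283, edgeR adjusted p = 0.0003). Both B chains were thus higher in every older pool, with no overlap. RT1-Da, the D alpha chain, went from 15.3, 8.79 and 24.2 CPM to 48.4, 35.9 and 55.1 CPM (log2 difference 1.54, SE 0.252, edgeR adjusted p = 0.00382). RT1-Db1, a D beta chain, went from 9.77, 4.39 and 14.4 CPM to 35.8, 26.2 and 40.8 CPM (log2 difference 1.86, SE 0.281, edgeR adjusted p = 0.00209). Pool 15 was the highest and pool 14 the lowest of the 12-month pools for all 4 chains and for Cd74, and the lowest 28-month pool stayed above the highest 12-month pool for each. Ctss encodes cathepsin S, the protease that removes the invariant chain, and was at 151, 164 and 177 CPM and then 231, 278 and 267 CPM. Its log2 difference was smaller at 0.66 (SE 0.115, edgeR adjusted p = 0.00766), again with no overlap.

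These were all 6 of the tested members of the class II list, with a median log2 difference of 1.87 against 0.0035 over all genes tested. Gene names were known only for genes that the study had listed as changed in some comparison of these libraries, so the count is not independent evidence of a direction. Without pools 13 and 14, the log2 difference was 1.51 for Cd74, 1.29 for RT1-Ba, 1.76 for RT1-Bb, 1.26 for RT1-Db1 and 0.95 for RT1-Da. Each was smaller than with all pools. Without pool 18, the adjusted p by edgeR of RT1-Db1 was 0.105 and that of RT1-Da 0.156. In whole tissue, fewer or more cells of a type and less or more RNA per cell cannot be told apart.

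The promoters of the 4 RT1 genes are shown because class II genes share regulatory boxes upstream of their start. They come from RefSeq on build GRCr8, which is not the build of the count files, and run 5′ to 3′ on the gene's strand from 250 bases before to 50 after the start. Capitals mark GATTGG, the core of the Y box (an inverted CCAAT), and matches to a pattern like the X box (CC, any 2 bases, G, any 2, AC, any 2 and ATG). RT1-Ba is at chr20:4576807-4577106 (+), RT1-Bb at chr20:4604069-4604368 (−), RT1-Da at chr20:4515165-4515464 (+) and RT1-Db1 at chr20:4560113-4560412 (−).
RT1-Ba: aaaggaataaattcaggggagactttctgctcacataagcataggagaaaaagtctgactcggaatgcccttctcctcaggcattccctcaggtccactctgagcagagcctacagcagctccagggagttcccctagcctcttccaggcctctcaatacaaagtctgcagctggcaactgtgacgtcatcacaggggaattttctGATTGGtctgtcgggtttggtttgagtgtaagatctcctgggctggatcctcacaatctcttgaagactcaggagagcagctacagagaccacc
RT1-Bb: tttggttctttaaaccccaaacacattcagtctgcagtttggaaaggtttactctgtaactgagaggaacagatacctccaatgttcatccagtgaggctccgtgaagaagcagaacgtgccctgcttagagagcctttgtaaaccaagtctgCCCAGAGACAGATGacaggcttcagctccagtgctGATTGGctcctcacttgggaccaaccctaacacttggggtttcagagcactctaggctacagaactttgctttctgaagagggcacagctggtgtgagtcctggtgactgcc
RT1-Da: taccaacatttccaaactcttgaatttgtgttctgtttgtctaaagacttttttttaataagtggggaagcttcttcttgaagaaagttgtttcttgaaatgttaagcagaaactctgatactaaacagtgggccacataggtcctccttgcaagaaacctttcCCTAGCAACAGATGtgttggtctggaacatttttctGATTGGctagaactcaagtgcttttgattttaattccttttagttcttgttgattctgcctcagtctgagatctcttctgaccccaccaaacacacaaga
RT1-Db1: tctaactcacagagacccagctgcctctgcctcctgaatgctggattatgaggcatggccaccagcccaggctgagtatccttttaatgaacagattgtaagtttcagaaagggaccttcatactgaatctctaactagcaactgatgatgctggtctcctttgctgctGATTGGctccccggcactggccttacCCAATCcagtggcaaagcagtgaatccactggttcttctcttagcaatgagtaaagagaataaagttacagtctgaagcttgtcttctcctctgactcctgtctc

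Counted from the start, GATTGG began at −44 in RT1-Ba, −62 in RT1-Bb and −50 in RT1-Da. RT1-Db1 held it at −81 and, on the opposite strand, at −55. The X-like pattern began at −97 in RT1-Bb and −86 in RT1-Da, 21 and 22 bases ahead of GATTGG. Searching both strands of 33469 promoters of this length, GATTGG was in 14.81% and the X-like pattern in 0.7529%. CCAAT, whose reverse complement overlaps GATTGG, was in 37.49%. With Cd74 as the fifth gene, 4 of 5 held GATTGG, 2 of 5 the X-like pattern and 5 of 5 CCAAT. These matches describe letters in this window only.

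Other immune lists held no called member, and their values are given with unadjusted p-values counted against the 3.82% of all genes that were higher at p under 0.05. Of 11 tested microglia markers, all 11 had a positive log2 difference and 5 had an unadjusted p under 0.05, with a median of 0.42. Among them were Sall1, a transcription factor of microglia, at 0.76 (edgeR adjusted p = 0.147), Itgam, an integrin chain, at 0.65, and Aif1, the IBA1 calcium-binding protein, at 0.53. Their summed level was 198 to 213 CPM at 12 months and 239 to 285 CPM at 28 months, so it moved with the class II genes without overlap, and its part in that result was not tested. Of 8 complement genes, 7 had an unadjusted p under 0.05, all higher, with a median log2 difference of 0.49. They included C2, a protease of the classical pathway, at 0.88 (edgeR adjusted p = 0.123), Itgb2, a chain of the complement receptor, at 1.07 (edgeR adjusted p = 0.159), and C3 at 0.47. Of 3 MHC class I genes, RT1-A2 had a log2 difference of 0.88 (edgeR adjusted p = 0.159) and RT1-A1 of 0.56 (0.436), and the chaperone gene Pdia3 of 0.07. Of 6 interferon response genes, 3 had an unadjusted p under 0.05, among them Lgals3bp at a log2 difference of 1.52 (edgeR adjusted p = 0.13) and Mx2 at 0.48. The lists of T, B and natural killer cells and of perivascular macrophages and neutrophils had no named member, so those cells were not assessed. The medians without pools 13 and 14 were 0.35 for microglia markers, 0.43 for complement, 0.17 for class I and 0.51 for interferon genes.

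**Figure D2:**
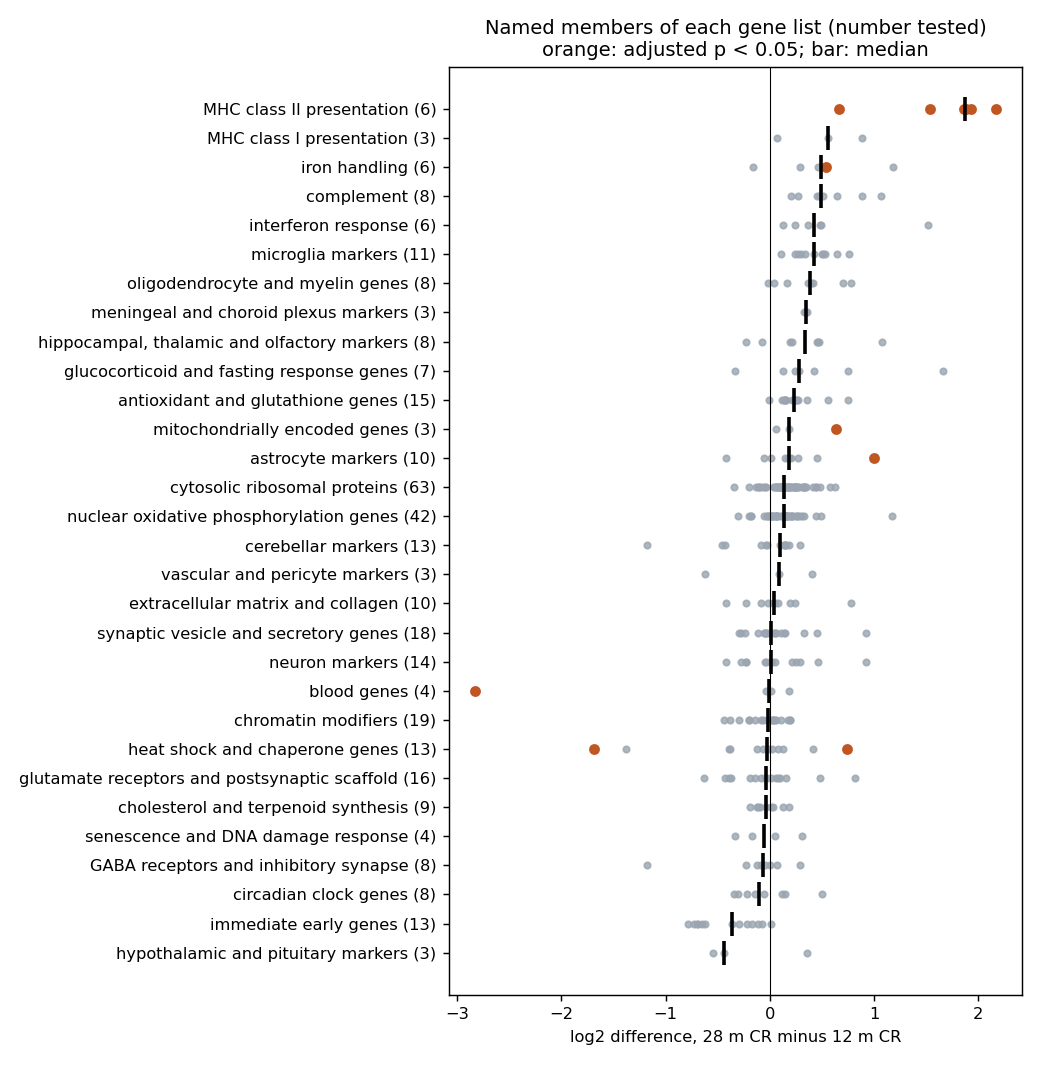
Log2 difference, 28 minus 12 months of CR, for each named member of the gene lists with at least 3 tested members, ordered by median (black bar), with called members in orange. Class II presentation is at the top with a median of 1.87 and hypothalamic markers are at the bottom with −0.44.

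Gfap was at 246, 226 and 315 CPM in the 12-month CR pools and at 390, 696 and 484 CPM in the 28-month pools. All older pools were higher, although they spread more widely, with means of 262 ± 46.4 and 523 ± 157 CPM (SD, n = 3). The log2 difference was 0.999 (SE 0.166, edgeR adjusted p = 0.00478). Without pools 13 and 14 it was 0.74. With all pools, DESeq2 gave an adjusted p of 0.132. Leaving out pool 14 or pool 18 gave edgeR adjusted p-values of 0.111 and 0.0979. Of 10 tested astrocyte markers Gfap was the one that passed, and 8 were positive with a median log2 difference of 0.18. At an unadjusted p under 0.05 (edgeR), 3 were higher and 1 was lower, beside 3.82% and 2.89% of all genes.

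The iron store gene Fth1, the ferritin heavy chain, was at 321, 303 and 339 CPM at 12 months and 447, 488 and 462 CPM at 28 months. The pools within each age were close and the ages did not overlap (log2 difference 0.54, SE 0.104, edgeR adjusted p = 0.022). Of 6 iron genes tested, 4 were higher at an unadjusted p under 0.05, beside 3.82% of all genes. Besides Fth1 these were Ftl, the ferritin light chain (log2 difference 1.18, edgeR adjusted p = 0.144), Cp, the ferroxidase ceruloplasmin (0.53), and Hmox2, a haem oxygenase (0.46). The list's median was 0.50.

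Hspa1b, an inducible HSP70 chaperone, fell. The identifier ENSRNOG00000050647 was at 11.4, 23.1 and 14.2 CPM in the 12-month pools and 5.09, 4.36 and 5.61 CPM in the 28-month pools (log2 difference −1.69, SE 0.288, edgeR adjusted p = 0.00597). A further identifier with the same symbol, ENSRNOG00000045654, was at 11.4, 23.1 and 9.47 CPM and then 6.78, 4.12 and 5.99 CPM. It was likewise lower in every older pool, but its log2 difference of −1.38 (SE 0.324) had an edgeR adjusted p of 0.114. Reads that map to both copies cannot be assigned, so the level of either copy is uncertain. Without pools 13 and 14 the called copy had a log2 difference of −1.48. Cirbp, the cold-inducible RNA-binding protein, rose from 27.9, 25.9 and 24.9 CPM to 46.3, 44.8 and 40.2 CPM (log2 difference 0.74, SE 0.152, edgeR adjusted p = 0.0397). Its ages did not overlap, but the call was lost when any 1 of the 6 pools was left out (adjusted p = 0.061 to 0.204). Of 13 heat shock and chaperone genes, Cirbp and Hspa1b were the 2 called, and 5 were positive.

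ATP8, a mitochondrially encoded subunit of ATP synthase, was at 625, 515 and 683 CPM at 12 months and 996, 1028 and 807 CPM at 28 months (log2 difference 0.64, SE 0.122, edgeR adjusted p = 0.0206). The other named mitochondrial transcripts did not pass. COX2, a subunit of cytochrome c oxidase, had a log2 difference of 0.19 (edgeR adjusted p = 0.797) and ND3, of complex I, 0.06 (0.962). Of 42 nuclear genes of oxidative phosphorylation none passed the adjusted threshold in edgeR, and the median was 0.13. At an unadjusted p under 0.05, 3 were higher and 1 lower, beside 3.82% and 2.89% of all genes. The 63 cytosolic ribosomal protein genes likewise had none past the adjusted threshold, with 54 positive values and a median of 0.14. Of these 63, 5 were higher and 1 lower at an unadjusted p under 0.05, beside the same shares of all genes.

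Myo6 and Ccdc47 were the called named genes in no list. Myo6, a myosin that moves towards the minus end of actin, was at 60, 57.3 and 54.7 CPM and then 82.1, 95.2 and 89.5 CPM (log2 difference 0.64, SE 0.126, edgeR adjusted p = 0.0276). Ccdc47, an endoplasmic reticulum protein, was at 99.9, 111 and 82.9 CPM and then 151, 149 and 147 CPM (log2 difference 0.61, SE 0.122, edgeR adjusted p = 0.0332). Neither overlapped between ages.

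Several of these calls did not hold in every fit that left out 1 pool. Without pools 13 and 14, against pool 15 alone, the log2 difference was 0.55 for Ctss, 0.46 for Fth1 and 0.47 for ATP8. It was 0.71 for Myo6, 0.85 for Ccdc47 and 0.82 for Cirbp, each larger than with all pools. When 1 pool was left out, Ctss passed in 3 of 6 fits (not without pool 14, 17 or 18), ATP8 in 3 (not without 14, 17 or 18), Fth1 in 2 (not without 13, 14, 17 or 18), Ccdc47 in 2 (not without 13, 15, 17 or 18) and Myo6 in 1 (without pool 16). Each kept a positive log2 difference in all 6 fits, the lowest being 0.50 for Fth1 and Ccdc47. The called Hspa1b copy was lost without pool 14 (adjusted p = 0.138 by edgeR) or pool 18 (0.106).

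Among called genes without a symbol and not following Rn28s, 3 rose and 4 fell. The protein-coding ENSRNOG00000047746 was at 3579, 4774 and 3231 CPM at 12 months and 2661, 2060 and 2455 CPM at 28 months (log2 difference −0.69, SE 0.129, edgeR adjusted p = 0.0169).

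None of the named genes of neuronal activity was called, and most had negative values. Of 13 immediate early genes, which neurons switch on within minutes of firing, 12 had a negative log2 difference and 6 an unadjusted p under 0.05, beside 2.89% of all genes lower at that level. The median was −0.36. Egr2, a zinc-finger transcription factor, was at 46.3, 55.8 and 40.7 CPM and then 31.2, 26.7 and 28.4 CPM, without overlap (log2 difference −0.72, edgeR adjusted p = 0.0716). Nr4a2, a nuclear receptor, was at 36, 35.8 and 38.1 CPM and then 21.3, 24.5 and 24 CPM (log2 difference −0.65, edgeR adjusted p = 0.13). Arc, a synaptic plasticity gene, overlapped, at 364, 283 and 292 CPM and then 288, 132 and 189 CPM (log2 difference −0.62, edgeR adjusted p = 0.39). The list's negative median rested largely on pools 13 and 14, without which 6 of 13 were positive and the median was −0.05. This did not hold for each gene. Across the alternative fits, other than those leaving out 1 pool, the highest log2 difference was −0.50 for Egr2, −0.65 for Nr4a2 and −0.26 for Arc. The 14 neuron markers summed to 1542 to 1604 CPM at 12 months and 1384 to 1481 CPM at 28 months. Their median log2 difference was 0.01, with 8 positive, and none passed the adjusted threshold. Syt1 had a log2 difference of −0.28, Gad1 of −0.23 and Lamp5 of −0.42, while Sncg, encoding gamma-synuclein, had 0.92 (edgeR adjusted p = 0.159).

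Of 8 oligodendrocyte and myelin genes none was called, 7 were positive and 4 had an unadjusted p under 0.05, all higher, with a median of 0.38. Over all genes 3.82% were higher at that level, a share that also stands beside the antioxidant and fasting counts below. Apod, a lipid carrier of glia, had a log2 difference of 0.71 (edgeR adjusted p = 0.107) and Hapln2, a link protein of nodes of Ranvier, 0.78 (0.159). Their sum overlapped between ages, at 746 to 963 CPM and 830 to 1242 CPM. The hypothalamic marker Ndn, an imprinted gene of neurons, came close to the threshold, at 186, 217 and 187 CPM and then 122, 140 and 141 CPM (log2 difference −0.55, edgeR adjusted p = 0.0511). Of 15 antioxidant and glutathione genes 14 were positive and 3 had an unadjusted p under 0.05, among them the metallothioneins Mt2A (0.75) and Mt3 (0.56). In the lists of chromatin modifiers (19 genes) and cholesterol synthesis (9 genes) no member reached an unadjusted p of 0.05, and their medians were −0.02 and −0.04. The remaining lists, other than nuclear ribosomal RNA (Rn28s alone, called), held no called gene apart from Alb among 4 blood genes, whose haemoglobin genes Hba-a2, Hba-a3 and Hba2 had log2 differences of 0.19, −0.03 and 0.01. Of 7 glucocorticoid and fasting genes 3 were higher at an unadjusted p under 0.05, namely Mlycd, a malonyl-CoA decarboxylase (log2 difference 1.67, edgeR adjusted p = 0.13), Mt2A and Txnip, a thioredoxin inhibitor (0.42). Mlycd was at 87.9 CPM in pool 16 and at 18.9 and 24.4 CPM in pools 17 and 18. Of 8 circadian genes Cry2 had −0.31 and Bhlhe41 0.51, with a median of −0.10. Among 16 glutamate receptor and scaffold genes the postsynaptic scaffolds Homer2 and Homer3 had −0.63 and 0.82, and the receptor subunit Grin2c 0.48, with a median of −0.04. The 18 synaptic vesicle genes had a median of 0.02, the 8 GABA genes −0.06 and the 4 senescence genes −0.06. The 10 extracellular matrix genes had a median of 0.04, with Hapln1, a link protein of perineuronal nets, at −0.42. The 3 vascular markers had a median of 0.09 (Vtn, vitronectin, −0.62), the 3 meningeal and choroid plexus markers 0.35 (Ptgds, a prostaglandin synthase, 0.35), the 13 cerebellar markers 0.10, the 2 striatal markers −0.13 and the oligodendrocyte precursor marker Tnr −0.08. Among the 8 hippocampal, thalamic and olfactory markers 6 were positive, and the median was 0.33. When pools 13 and 14 were left out, 2 of these 8 were positive and their median was −0.45, while the medians of the ribosomal protein and oxidative phosphorylation genes were 0.33 and 0.31, of iron genes 0.74, of myelin genes 0.30, of antioxidant genes 0.33, of astrocyte markers 0.06 and of circadian genes 0.10.

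Across all lists 339 identifiers were tested and 13 were called, beside 0.273% of all genes tested, and their median log2 difference was 0.12. These lists could hold only genes already listed by the study as changed, and 15 of all 1670 named genes tested were called.

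The fall of Alb, which encodes serum albumin, rested on pools 13 and 14. Alb was at 127, 164 and 11.6 CPM in the 12-month CR pools and at 12.8, 14.3 and 15.3 CPM in the 28-month pools (log2 difference −2.83, SE 0.521, edgeR adjusted p = 0.0145). Pool 15 was at the level of the older pools, and without pools 13 and 14 the log2 difference was 0.29. Leaving out pool 14 or pool 18 alone also ended the call (edgeR adjusted p = 0.233 and 0.332), as did DESeq2 (0.351). The 45 genes at least 3 times higher in those 2 pools than in the other 4 included 4 of the 6 genes that fell, which is no independent result, since they were chosen on the same values. Only Alb had a symbol. Each other choice of 1 pool set aside from its group of 3 gave 0 to 4 such genes. The 44 without Alb summed to 244, 280 and 25.1 CPM in pools 13, 14 and 15 and to 22 to 28.8 CPM in the 28-month CR pools. Outside CR, pool 39 of 12-month AL+LA was at 597 CPM and pool 35 of 28-month AL+LA at 207 CPM. In pool 39, 37 of the 45 genes were at least 3 times each other pool of its group, beside 1.21% of all genes tested. In pool 35 they were 20 of 45, beside 1.02%.

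**Figure D3:**
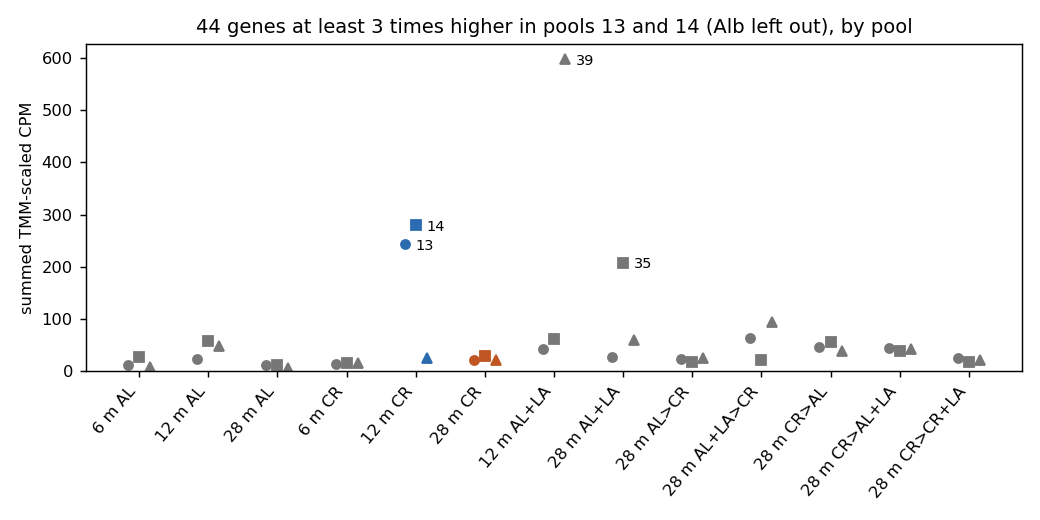
Summed TMM-scaled CPM of the 44 genes at least 3 times higher in pools 13 and 14 (Alb left out) in each of the 39 pools, by group. Pools 13, 14, 35 and 39 are at 244, 280, 207 and 597 CPM, above every other pool. The next is pool 24 at 95.1 CPM, from 28-month-old rats moved from AL+LA to CR at 12 months.

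Rn28s was at 4318, 3123 and 3014 CPM in the 12-month CR pools and 31308, 30441 and 33984 CPM in the 28-month pools (log2 difference 3.20, SE 0.125, edgeR adjusted p = 2.13e-12). Its biotype in the study's tables was miRNA, as for 22 of the 25 identifiers following it, the other 3 being protein-coding, and all 26 rose. Libraries were depleted of ribosomal RNA before sequencing, and the part of that step in this level was not tested. Over the 33 other libraries, which share preparation and depth, Pearson's r with Rn28s was 0.51 for Cd74, 0.38 to 0.44 for the 4 RT1 chains, 0.58 for Gfap, 0.60 for Fth1, 0.65 for Myo6 and 0.50 for Ccdc47. It was 0.44 for Ctss, 0.37 for Alb, 0.35 for Cirbp, 0.24 for ATP8 and 0.0018 for the called Hspa1b copy. Rn28s also differed between pools of the same age and diet, with 6959, 2198 and 35984 CPM in the 6-month CR pools, where the sum of the 5 MHC class II genes was 43.5, 23.4 and 38.4 CPM. The part of Rn28s in the other calls was not tested. In a fit of all 13 groups 20 genes were called between the CR ages, 4 of the 6 class II list members among them. With Rn28s added as a covariate edgeR called 0 (699 at an unadjusted p under 0.05), and 24 of the 47 genes kept their direction. Of the 47, 26 are Rn28s and its followers, whose change this covariate takes up by construction. The CR ages do not overlap in Rn28s, so for the other genes the lost calls cannot tell no change from lost precision. In that fit the log2 difference was 1.74 for Cd74 (edgeR adjusted p = 0.821), 1.90 to 2.42 for the 4 RT1 chains, 1.07 for Gfap (0.321), −1.63 for Hspa1b and 0.48 for Cirbp. It was 0.26 for Ctss, 0.30 for Fth1 and 0.18 for Myo6, each smaller than without the covariate, and −0.053 for ATP8 and −0.038 for Ccdc47, which reversed. The class II sum was 66.4, 43.5 and 102 CPM in the 12-month CR pools and 246, 219 and 291 CPM in the 28-month CR pools.

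**Figure D4:**
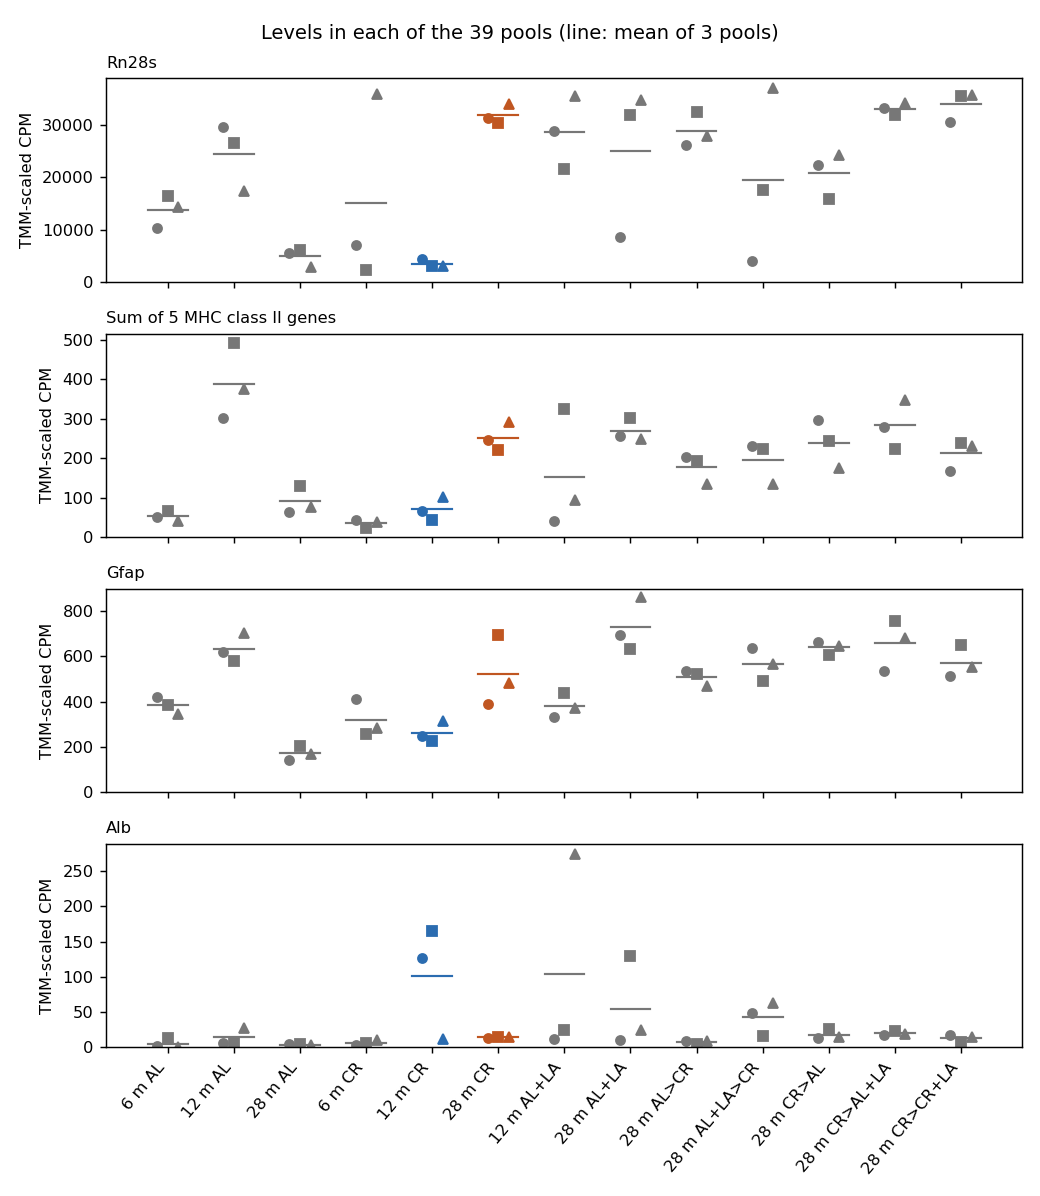
TMM-scaled CPM of Rn28s, the sum of the 5 MHC class II genes (Cd74 and the 4 RT1 chains), Gfap and Alb in each of the 39 pools, with a line at the mean of 3 pools and the CR groups at 12 and 28 months in colour. The class II sum is 43.5 to 102 CPM in 12-month and 219 to 291 CPM in 28-month CR pools.

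The same ages were then compared in AL+LA rats. There 3 genes passed (0.0174% of 17230). Gfap and Mpeg1, a macrophage gene, rose (2 genes, 0.0116%), and Hspa1b (ENSRNOG00000045654) fell (1 gene, 0.0058%). At an unadjusted p under 0.05 there were 760. Gfap was at 331, 439 and 372 CPM at 12 months and 692, 632 and 862 CPM at 28 months of AL+LA (log2 difference 0.93, SE 0.124, edgeR adjusted p = 0.00284), beside 0.999 in CR. The change in CR exceeded it by 0.07 (SE 0.234). Hspa1b (ENSRNOG00000050647) had a log2 difference of −1.84 (SE 0.328, edgeR adjusted p = 0.0534) in AL+LA, and the change in CR differed from it by 0.14. Neither difference between the diets passed, and both were smaller than their own error. Cd74 was at 12.3, 89.1 and 35.6 CPM at 12 months and 76.7, 102 and 87 CPM at 28 months of AL+LA, and its ages overlapped through pool 38 (89.1 CPM). Its log2 difference there was 0.88 (SE 0.327), and the change in CR exceeded it by 1.03 (SE 0.485, edgeR adjusted p = 0.992). Without pool 38, 8 genes rose in AL+LA and 4 of them were of the class II list, namely Cd74 (log2 difference 1.87, edgeR adjusted p = 0.00268), RT1-Ba (2.11), RT1-Da (1.88) and RT1-Db1 (2.39). Pool 38 was singled out on its own Cd74 value, so these rises are no independent result. With all AL+LA pools, and without any other single pool, no class II list member was called. Across genes, 15 (0.0871%) had a change in CR that differed from that in AL+LA, all 15 higher in CR. All 15 were Rn28s (3.39, SE 0.41, edgeR adjusted p = 4.77e-05) and identifiers following it, and no other gene passed. Without pools 13 and 14 the change of Rn28s in CR exceeded that in AL+LA by 3.60.

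In AL rats without the supplement, Cd74, the 4 RT1 chains, Gfap and Fth1 fell. Cd74 was at 101, 144 and 110 CPM in the libraries labelled 12 months and 20.6, 46.7 and 25.7 CPM in those labelled 28 months (log2 difference −1.90, edgeR adjusted p = 7.71e-05). Gfap was at 619, 577 and 701 CPM and then 140, 203 and 171 CPM (log2 difference −1.88, edgeR adjusted p = 4.98e-06). Fth1 was at 600, 734 and 630 CPM and then 337, 404 and 322 CPM (log2 difference −0.88, edgeR adjusted p = 0.0137). Rn28s fell as well, from 29577, 26500 and 17300 CPM to 5593, 6072 and 2927 CPM (log2 difference −2.33, edgeR adjusted p = 6.29e-06). Its part in the other falls was not tested. The change in CR exceeded that in AL by 3.81 (SE 0.348, edgeR adjusted p = 4.39e-07) for Cd74 and by 2.88 (SE 0.263, edgeR adjusted p = 4.39e-07) for Gfap. RT1-Ba, RT1-Bb, RT1-Db1 and RT1-Da differed by 3.94, 4.13, 3.88 and 3.91. Over all genes 66 (0.383%) differed, 64 with the higher change in CR (0.371%) and 2 with the lower (0.0116%). Of the 66, 26 were Rn28s and its followers and 40 were other genes. Without pools 13 and 14 the difference from AL was 3.39 for Cd74, 2.61 for Gfap and 3.27 to 3.72 for the 4 RT1 chains. For Ctss the difference between diets was 0.25 (edgeR adjusted p = 0.746). The share of reads not aligned was 30.4 to 36.1% in the 12-month and 27.5 to 33.2% in the 28-month AL libraries, below every 12- and 28-month library of CR and of AL+LA, and 1 of the 12-month AL libraries held 494091 reads on genes. The direction in AL rests on the age labels of these libraries, which no other measure here checks, and the sign of every AL value and of each difference from AL depends on them. Diet and these library properties cannot be told apart in this comparison.

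**Figure D5:**
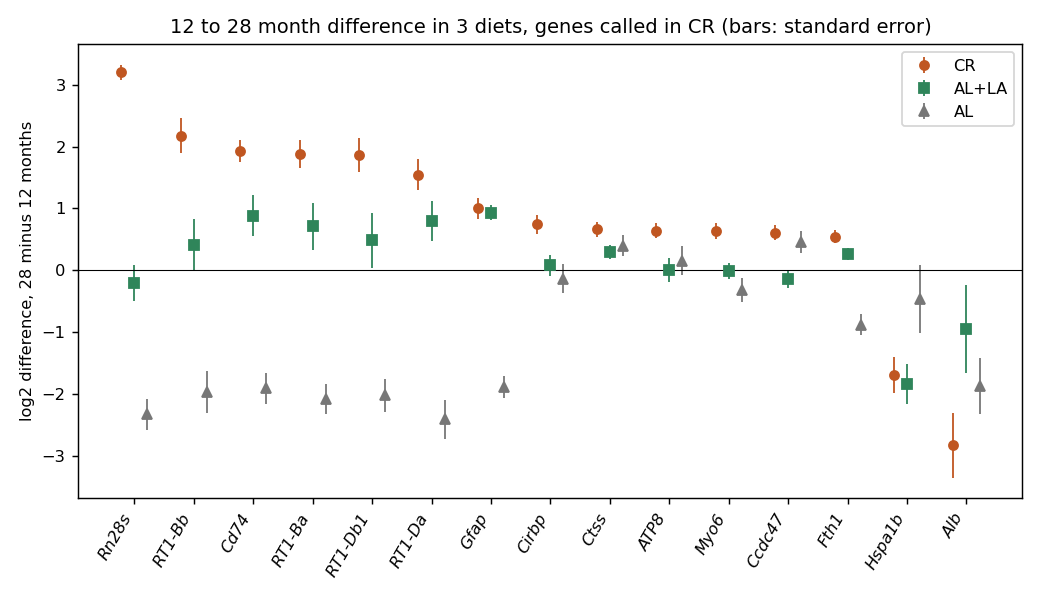
Log2 difference, 28 minus 12 months, of the named genes called in CR, in CR, AL+LA and AL, with bars of 1 standard error. Cd74 is at 1.93 in CR, 0.88 in AL+LA and −1.90 in AL, and Gfap at 0.999, 0.93 and −1.88.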

How the data were processed

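Ribosome-depleted RNA from cerebral cortex of 39 pools of 2 rats (13 groups of 3) was sequenced on SOLiD as 75-base reads. The authors mapped these in colour space with Bowtie to rn5, without multiply mapping reads, and deposited raw counts per Ensembl gene made with HTSeq-count. The submitters' notes give no versions. The last 5 lines of each file (non-gene totals) were removed, leaving 26123 identifiers. Genes with at least 1 CPM in at least 3 of the 39 libraries (17230) were tested in edgeR 4.0.16 (R 4.3.3) with TMM factors and the quasi-likelihood test, fitting the 6 libraries of the comparison, or the 12 of an interaction between diets. Standard errors are the log2 difference over the square root of F. P-values were adjusted by the Benjamini-Hochberg method over all genes tested. The procedure was tested on simulated data.

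The counts fix depth at 3230145 to 5614861 reads on genes for the 6 libraries, and intervals cover counting error and the spread between pools only. Replicate pairs differed by more than sampling noise (chi-square per degree of freedom 4.47 to 7.13). Nothing in the labels ties pools to separate experiments beyond their animals.

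Names came from the study's supplementary tables, which cover 1882 identifiers, so 1670 tested genes had a symbol. Named with values were all called genes with a symbol, up to 4 members of each list by smallest p, defining marker genes, both Hspa1b copies, Gfap, Alb, Rn28s and the mitochondrially encoded genes. At most 2 unnamed identifiers were printed per direction. The genes at least 3 times higher in pools 13 and 14 were counted after the data had been seen. The comparison and the 35 lists were chosen with earlier results of these data known. Alternatives were RLE factors, DESeq2 1.42.0, the exact test of edgeR, other filters, all 13 groups in one fit with and without Rn28s as a covariate, and leaving out pools. Leaving out pools 13 and 14 together, in CR and in the differences between diets, was added after seeing the data. Comparisons in the study's own tables of changed genes were not used. Promoters were taken from RefSeq (GRCr8), and motifs were searched on both strands.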

Additional observations from a re-analysis of the deposited data

Results flagged for a closer look

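These results are listed because the change from 12 to 28 months differed between diets by a test of the difference itself (edgeR, adjusted p below 0.05). Groups of 3 pools were too small for a check of single outlying pools. Against AL without supplement, 66 genes had a different change in CR, of which 26 were Rn28s and identifiers following it. The change in CR minus that in AL, on the log2 scale, was 5.52 for Rn28s, 3.81 for Cd74, 3.94 for RT1-Ba, 4.13 for RT1-Bb, 3.88 for RT1-Db1, 3.91 for RT1-Da, 2.88 for Gfap, 1.41 for Fth1 and 0.94 for Myo6. Against AL+LA, 15 genes differed, all of them Rn28s and identifiers following it, and Rn28s did so by 3.39. The AL libraries also differed from the others in their share of unaligned reads, whose part was not tested, and the direction of each difference from AL rests on their age labels.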

How the results depend on the processing

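No paired analysis was possible because the groups compared share no replicate numbers. Of the 47 genes called between 12 and 28 months of CR, 21 did not follow Rn28s. With Rn28s and its followers removed before the test, these 21 became 16, the 6 class II list members among them. The 47 became 94 with edgeR's exact test, 175 with no filter on low counts and 20 with all 13 groups in one fit. With Rn28s as a covariate in that fit edgeR called 0 (699 at an unadjusted p under 0.05). That covariate takes up the change of Rn28s and its followers by construction. It does not overlap between the CR ages, so lost calls there cannot tell no change from lost precision. Without pools 13 and 14, 45 of the 47 genes kept their direction. The same number did so when these pools were left out of the fit of all groups. The count of calls was 48 with RLE factors, 53 with DESeq2 and 47 with a minimum of 10 counts. Leaving out 1 pool gave 18 (without pool 18) to 110 (without pool 16). Rn28s and its followers made up 15 of the 18 and 26 of the 110. The 6 class II list members were all called by most settings, but 4 of 6 with all groups in one fit, 0 with the Rn28s covariate, and 3 to 6 when 1 pool was left out. Without pools 13 and 14, against pool 15 alone, their median log2 difference was 1.27, beside 1.87 with all pools.

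The 66 genes differing between CR and AL became 116 with DESeq2, 214 with no filter and 122 with all groups and 39 without pools 13 and 14 (46 to 83 when 1 pool was left out). The 15 differing from AL+LA became 9 with RLE factors, 7 with DESeq2, 75 with no filter, 9 with a minimum of 10 counts and 0 by edgeR with all groups (660 at an unadjusted p under 0.05), and 7 to 28 when 1 pool was left out. The 3 genes of AL+LA alone became 44 with no filter, and 1 to 8 when 1 pool was left out, the 8 being without pool 38.

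Alb reversed to 0.29 without pools 13 and 14, in both fits. With Rn28s as a covariate the log2 difference reversed to −0.053 for ATP8, −0.038 for Ccdc47, −0.14 for Ftl, −0.48 for Ndufa13, −0.24 for Atp5c1, 0.0022 for Lamp5, −0.14 for Pcsk1n, −0.47 for Cp and −0.012 for Sparcl1. The cause was not tested. The difference in unaligned share was −2.79 to −1.49 points when 1 pool was left out, and that in reads on no gene, 1.63 points, was 0.827 to 2.16 points, or −0.283 as a share of aligned reads.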
